A study of Mus musculus with 12 samples.

Results

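Fn1, Tnc, Postn, Thbs1, Thbs2, Sparc, Mfap5, Fbn1 and Fbln2 encode fibronectin, matricellular glycoproteins and components of elastic fibres. These 9 genes were taken by symbol from a table of 23184 gene symbols, and all 9 were among the 11774 genes that were tested because their mean over all libraries was at least 1 TPM (transcripts per 1000000 transcripts). The rule names symbols and uses no measured value.

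Fibronectin is secreted as a dimer, is pulled into fibrils by integrins on the cell surface, and serves as the scaffold on which other matrix proteins are laid down. Matricellular proteins such as tenascin C, periostin, the thrombospondins and SPARC are secreted into the matrix, where they modulate adhesion, growth factor activity and collagen assembly more than they bear load. Fibrillin 1 forms microfibrils, to which MFAP5 and fibulin 2 bind, and these microfibrils carry elastin and hold latent TGF-beta. In the heart, most of these proteins come from fibroblasts and rise after injury.

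RNA was sequenced from HL-1 cells, an immortal line of mouse atrial cardiomyocyte origin, in 3 groups of 4 libraries. The series was made to find genes related to Wdr62, whose product, a scaffold protein, acts at spindle poles in mitosis. The control cells (CON, genotype WT) were infected with viruses for the empty pCDH and lentiCRISPRv2 vectors. The knockdown cells (KD, genotype WDR62-) were infected with a virus carrying an sgRNA against Wdr62. The re-expression cells (RE, genotype WDR62+) were KD cells infected again with a virus for pCDH-WDR62-WT-flag. All 3 groups were grown with fetal bovine serum. No pCDH vector is named for KD, so a response to that vector and a response to the guide cannot be told apart between KD and CON. RE cells also went through a further infection that CON and KD cells are not said to have had. The labels do not say whether a group was 1 clone or a mixed population, nor whether its 4 libraries came from separate cultures, so the p-values measure the spread between these libraries, which may be technical.

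Wdr62 itself was 7.45, 6.61, 6.50 and 3.38 TPM in CON 1 to 4, 0.881 to 1.40 TPM in KD and 0.772 to 1.99 TPM in RE. It was lower in KD than in CON (log2 fold change -1.67 ± 0.25 SE, adjusted p = 0.000921 by limma), and RE also lay under CON (-1.62 ± 0.25, adjusted p = 0.00147). RE and KD differed by 0.05 ± 0.25 (adjusted p = 0.895), so the library values of mouse Wdr62 do not separate RE from KD, and no source used here says whether transcripts of the construct are counted under this symbol. Of 14 heart muscle markers, 5 reached a mean of 1 TPM. The summed level of the 14 was 29.9 to 48.0 TPM in CON, 40.1 to 48.8 in KD and 41.2 to 66.5 in RE, and Actc1, Myl7 and Actn2 were listed at 0 in all 12 libraries. Of the 5 tested, 1 rose against CON and none fell. That was Nkx2-5, with a mean of 5.31 TPM in CON, 12.1 in KD and 18.4 in RE. Its log2 fold change was 1.10 in KD (adjusted p = 0.0229 by limma, called in 15 of 23 alternative settings). In RE it was 1.63 (adjusted p = 0.00309, called in 23 of 23). The 11 fibroblast markers summed to 10614 to 11657 TPM in CON, 8040 to 12291 in KD and 6905 to 12177 in RE, led by Vim, which many cultured cells express, with Lum and Tcf21 listed at 0. The 6 skeletal muscle markers summed to 21.3 to 41.0 TPM in CON, 8.13 to 10.4 in KD and 7.35 to 15.2 in RE, and the 4 that were tested fell in KD against CON. Among them, Myod1 and Acta1 had a group mean of 1 TPM or more in CON alone and entered the test through it. Smooth muscle and myofibroblast markers summed to 337 to 1549.7 TPM over all libraries, with Myh11 at 0.11 or less. Endothelial markers summed to at most 1.20 TPM and white blood cell markers to 4.35 to 13.6 TPM, the latter mostly from Cd68, with Adgre1 listed at 0. The libraries thus held little of the RNA that defines heart muscle, and RNA of matrix genes was abundant. A smaller number of cells of 1 kind and less RNA per cell cannot be told apart in such bulk libraries.

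The libraries CON 4, RE 1 and RE 3 differed from their groups in genes with long transcripts. For the longest transcripts, 2343 tested genes of 5189 bases or more, each library's log2 values were set against the gene means over all libraries. The median difference was -0.82 in CON 4, whereas CON 1 to 3 stood between 0.46 and 0.70. It was -0.72 in RE 1, -0.11 in RE 2, -0.99 in RE 3 and -0.13 in RE 4, and lay between -0.21 and 0.56 in KD. This touches the members directly, since 7 of them have transcripts of 4786 bases or more and the other two, Sparc and Mfap5, have 2300 and 2491. Each member is therefore given with and without those 3 libraries wherever its call differs. The median of all tested genes was also -0.29 in RE against KD on the deposited scale, -0.27 in RE against CON and -0.01 in KD against CON, and the changes in RE are to be read relative to that shift.

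The genes lie on 7 chromosomes of GRCm38, Thbs1 and Fbn1 both on chromosome 2 and Mfap5 and Fbln2 both on chromosome 6. Sparc occupies chr11:55394500-55423183 on the minus strand, Mfap5 chr6:122505845-122529290 on the plus strand and Fn1 chr1:71585520-71653200 on the minus strand. Thbs1 lies at chr2:118111876-118127133 on the plus strand, Thbs2 at chr17:14665500-14694235 on the minus strand and Fbln2 at chr6:91212455-91272540 on the plus strand. Tnc lies at chr4:63959785-64047015 and Fbn1 at chr2:125300594-125507993, both on the minus strand, and Postn at chr3:54361109-54391037 on the plus strand. Exons of Fn1, Tnc, Thbs1 and Fbn1 overlap exons of a gene on the opposite strand, and since the use of strand is not stated, reads of the partners cannot be told apart. The largest overlap, 2442 bases, is that of Fbn1 with the protein-coding gene Gm9913, whose level is not given here. Tnc and Thbs1 share 176 and 208 bases with their partners. The partner of Fn1, Apol7d, shares 292 bases with it. The mean of Apol7d was 0.07 to 0.14 TPM by group.

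Windows from 250 bases before to 50 bases after the annotated start, taken from RefSeq on GRCm38.p6, were at hand for 6 of the 9 genes with 8 starts. Windows of 3 genes are shown, for the pair of members whose levels ran most alike over the libraries (Thbs2 and Fbln2) and for the 1 member that both rose in KD and fell in RE (Sparc). Capitals mark letters of TATAAA or CCAAT on either strand.
Thbs2, chr17:14694213-14694512, minus strand: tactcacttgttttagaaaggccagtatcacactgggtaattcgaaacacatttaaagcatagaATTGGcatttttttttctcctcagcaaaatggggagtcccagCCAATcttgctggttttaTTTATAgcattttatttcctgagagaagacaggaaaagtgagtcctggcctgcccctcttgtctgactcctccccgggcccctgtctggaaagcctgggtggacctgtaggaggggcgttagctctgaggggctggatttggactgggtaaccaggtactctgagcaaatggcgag
Fbln2, chr6:91212514-91212813, plus strand: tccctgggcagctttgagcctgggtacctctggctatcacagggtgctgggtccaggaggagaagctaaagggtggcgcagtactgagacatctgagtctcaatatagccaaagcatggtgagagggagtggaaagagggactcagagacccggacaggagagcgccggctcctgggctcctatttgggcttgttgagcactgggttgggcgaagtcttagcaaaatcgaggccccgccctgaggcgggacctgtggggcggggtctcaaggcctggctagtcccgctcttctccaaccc
Sparc, chr11:55420031-55420330, minus strand: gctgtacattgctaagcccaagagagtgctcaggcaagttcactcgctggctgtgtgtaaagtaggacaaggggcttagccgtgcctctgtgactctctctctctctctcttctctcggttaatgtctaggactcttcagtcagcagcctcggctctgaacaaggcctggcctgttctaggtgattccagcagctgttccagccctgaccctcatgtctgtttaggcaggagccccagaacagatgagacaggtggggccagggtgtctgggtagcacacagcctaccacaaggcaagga
The letters searched were TGANTCA (the AP-1 motif), GGAATG (the TEAD motif), TATAAA and CCAAT, each on both strands, and no match of 1 motif overlapped a match of another. The Thbs2 window held CCAAT at -186 and -144 and TATAAA at -126, counted from the start. A TATAAA also stood at -126 and -205 of the 2 Tnc starts, which is the same site, and at -26 of 1 Postn start, and a CCAAT at 25 after the other Postn start. The windows of Fbln2, Sparc and Fbn1 held none of the 4. Across all 32851 promoter windows of this length, TATAAA stood in 13.6%, CCAAT in 37.4%, TGANTCA in 7.81% and GGAATG in 14.7%. The windows of Thbs2 and Fbln2 thus shared no match, although the levels of both genes ran alike.

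In the control cells, Sparc and Fn1 were the most abundant members, at 2407 ± 262 and 2022 ± 698 TPM (mean ± SD, n = 4, as for all means below). TPM is scaled per transcript length, which allows levels of different genes to be set side by side. The values still hold the long-transcript differences between libraries described above. The ranges of Sparc and Fn1 overlapped, and Sparc was the higher in 2 of the 4 CON libraries. Thbs1 followed at 449 ± 153 TPM, Thbs2 at 343 ± 116, Fbln2 at 146 ± 51.1, Fbn1 at 59.9 ± 30.3, Mfap5 at 48.2 ± 37.3, Tnc at 41.4 ± 11.3 and Postn at 6.54 ± 3.92. Of these neighbours, only Fn1 and Thbs1, and Tnc and Postn, had ranges that did not overlap, but Thbs1 lay above Thbs2, Thbs2 above Fbln2 and Fbln2 above Fbn1 within each of the 4 libraries. In KD, Mfap5 stood between Thbs2 and Fbln2, and in RE it stood beside Thbs2, with overlapping ranges.

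**Figure D1:**
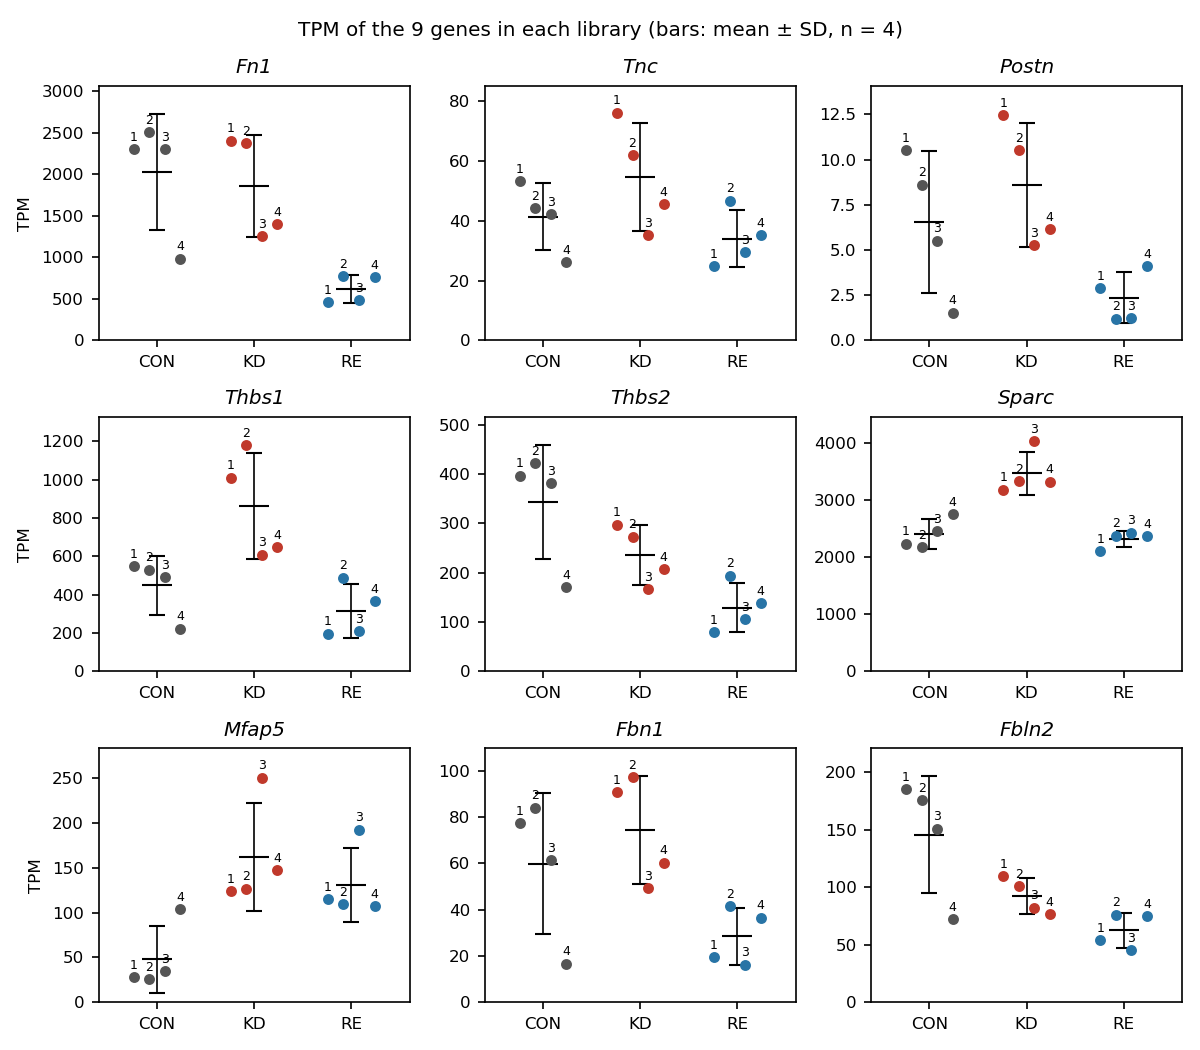
Level of each of the 9 genes in TPM (linear axis from 0, its own scale per gene) in the CON, KD and RE libraries, with 1 numbered point per library and bars for the mean ± SD (n = 4). Sparc and Fn1 lead in CON, Mfap5 is higher in KD and RE than in CON without overlap, and CON 4 lies below the other CON libraries for all members but Sparc and Mfap5.

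When Wdr62 was targeted, the elastic fibre gene Mfap5 and the matricellular gene Sparc rose, and no member fell. Mfap5 rose from 48.2 ± 37.3 to 162 ± 59.8 TPM and Sparc from 2407 ± 262 to 3467 ± 381 TPM. By limma, 2 of the 9 genes were higher in KD at an adjusted p below 0.05, against 6.6% of all tested genes higher and 3.61% lower (10.2% in all). Thbs1 went from 449 ± 153 to 861 ± 278 TPM without overlap of the groups, but its adjusted p of 0.120 missed the threshold. The median log2 fold change of the 9 genes was 0.48, against -0.01 for all tested genes. It was 0.03 without CON 4, RE 1 and RE 3 (all tested genes -0.16). With a correction for transcript length it was 0.45 (all genes with a length -0.02). Every KD library lay above every CON library for 3 members (Mfap5, Sparc and Thbs1), against 11.9% of all tested genes, and for no member did every KD library lie below, against 7.02%.

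Mfap5 encodes a microfibril-associated glycoprotein that binds fibrillin. It was 28.1, 26.1, 34.8 and 104 TPM in CON 1 to 4, and 124, 126, 250.2 and 147 TPM in KD 1 to 4. All 4 KD libraries were higher than all 4 CON libraries, with CON 4 the closest to them. The log2 fold change was 1.91 ± 0.40 (adjusted p = 0.00863, exact permutation p = 0.0286, the smallest that 4 against 4 allows), and it was 2.36 without CON 4, RE 1 and RE 3. The rise was called in all 23 alternatives run.

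Sparc encodes a collagen-binding matricellular protein. Its levels were 2239, 2174, 2460.3 and 2755 TPM in CON and 3182, 3334, 4029 and 3323 TPM in KD. No KD library reached down to the CON range, and the highest CON library was again CON 4. This was a log2 fold change of 0.53 ± 0.12 (adjusted p = 0.0153, exact permutation p = 0.0286), called in 20 of 23 alternatives. Those without the call were median-of-ratios scaling of the libraries (0.51, adjusted p = 0.258) and leaving out CON 1 (0.49) or CON 2 (0.48).

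Thbs1 encodes thrombospondin 1, which binds CD47 and activates latent TGF-beta. It was 549, 530.2, 493 and 222 TPM in CON and 1010.3, 1178, 609 and 649 TPM in KD. Thbs1 thus differed by 0.97 ± 0.36 on the log2 scale (adjusted p = 0.120, exact permutation p = 0.0286). It passed the threshold at 0.66 without the 3 libraries that stood apart (adjusted p = 0.0404), at 0.95 with median-of-ratios scaling (0.0236) and at 0.94 with a correction for transcript length (0.00106). The groups did not overlap, but the call depended on the setting.

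Thbs2 and Fbln2 pointed the other way. Thbs2 encodes thrombospondin 2, a relative of thrombospondin 1 with the same domain order. It was 397, 422, 382 and 171 TPM in CON and 298, 273, 167 and 207 TPM in KD. The first 3 CON libraries lay above all 4 KD libraries, and CON 4 lay among them. The log2 fold change was -0.49 ± 0.33 (adjusted p = 0.430), and -0.79 without the 3 libraries (adjusted p = 0.011). Fbln2, which encodes a fibulin that binds fibronectin and fibrillin, was 185, 175, 151 and 72.1 TPM in CON and 109, 101, 82.2 and 76.3 TPM in KD. The first 3 CON libraries again lay above all 4 KD libraries, but CON 4 lay below all of the KD libraries. The log2 fold change was -0.58 ± 0.28 (adjusted p = 0.241), and -0.89 without the 3 libraries (adjusted p = 0.00109).

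Fn1, Tnc, Postn and Fbn1 did not pass the test in KD against CON. Fn1, the fibronectin gene, was 2299, 2502, 2301 and 984 TPM in CON and 2402, 2376, 1255 and 1402 TPM in KD. Both groups held high and low libraries, and the log2 difference was -0.09 (95% interval -0.81 to 0.62, adjusted p = 0.926). Tnc, for tenascin C, ranged from 26.2 to 53.2 TPM in CON and from 35.2 to 76.3 in KD (0.38 ± 0.28, adjusted p = 0.490). Postn, for periostin, ranged from 1.54 to 10.5 TPM in CON and from 5.25 to 12.4 in KD (0.48 ± 0.46, adjusted p = 0.618). Fbn1, for fibrillin 1, ranged from 16.8 to 84.0 TPM in CON and from 49.3 to 97.1 in KD (0.48 ± 0.47, adjusted p = 0.633). Its value was -0.04 without CON 4, RE 1 and RE 3, and 0.55 with the length correction (adjusted p = 0.00557).

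Without CON 4, RE 1 and RE 3, KD against CON had 3 members higher (Sparc, Mfap5, Thbs1) and 2 lower (Thbs2, Fbln2), against 14.2% and 25.1% of all tested genes (39.4% in all). Without CON 4 alone, Sparc, Mfap5 and Fbln2 (-0.89) were called. With the length correction 6 members were called, against 21.4% of all genes with a length, and with median-of-ratios scaling 3 (Mfap5, Thbs1 and Fbln2), against 13.3%. With all libraries, Col1a1 and Dcn fell in KD, 2 of the 8 tested fibroblast markers, and none rose. The median of these markers was -0.21, against 0.48 for the members. Without CON 4, RE 1 and RE 3, 1 of the fibroblast markers rose and 3 fell. Their part in the members' values was not tested.

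**Figure D2:**
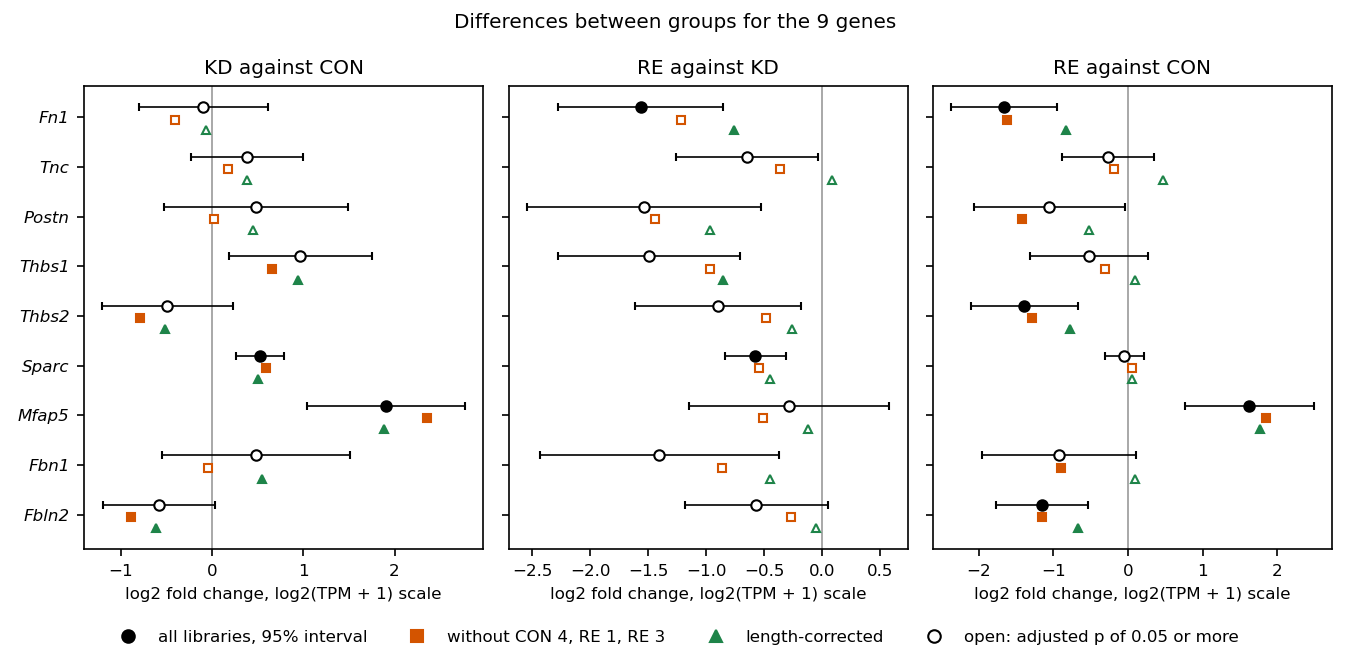
Log2 fold change on the log2(TPM + 1) scale with its 95% interval for each of the 9 genes in the 3 comparisons, with all libraries (circles), without CON 4, RE 1 and RE 3 (squares) and with the length correction (triangles), filled where the adjusted p was below 0.05. Mfap5 lies to the right of 0 in both comparisons with CON, and Fn1, Thbs2 and Fbln2 lie to the left of 0 in RE against CON.

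The comparison of RE with KD asks what differed once KD cells had received the WDR62 virus. Fn1 and Sparc were lower in RE, and no member was higher. Fn1 fell from 1858 ± 615 to 619 ± 170 TPM and Sparc from 3467 ± 381 to 2320 ± 146 TPM. These were 2 of the 9 genes, against 0.858% of all tested genes lower and 0.187% higher (1.04% in all). Every RE library lay below every KD library for 6 members (Fn1, Postn, Thbs1, Sparc, Fbn1 and Fbln2), against 10.8% of all tested genes, and above for none, against 3.47%. The median of the 9 log2 fold changes was -0.90, against -0.29 for all tested genes. It was -0.54 without CON 4, RE 1 and RE 3 (all tested genes -0.10). With the length correction it was -0.45 (all genes with a length 0.01).

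Fn1 was 461, 772, 483 and 761 TPM in RE 1 to 4, below the lowest KD library (1255 TPM). Fn1 was lower by a log2 fold change of -1.56 ± 0.33 (adjusted p = 0.0467, exact permutation p = 0.0286). Without CON 4, RE 1 and RE 3 it was -1.21 with an adjusted p of 0.0779, and with the length correction it was -0.76 with an adjusted p of 0.012. The fall was called in 7 of 23 alternatives.

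Sparc was 2104, 2380.1, 2429 and 2366 TPM in RE, a narrow range that lay below all KD libraries. The log2 fold change was -0.58 ± 0.12 (adjusted p = 0.0479, exact permutation p = 0.0286), and it was called in 6 of 23 alternatives. With median-of-ratios scaling, which removes the shift of all genes, the value was -0.25 (adjusted p = 0.525). Both calls lay close to the threshold. Leaving out 1 library moved the count of members lower in RE from 2 to between 0 and 7. It was 7 without CON 4, a library outside this comparison that enters the shared estimate of the spread (Fn1, Sparc, Thbs1, Thbs2, Postn, Fbn1 and Fbln2), 3 without KD 3 or RE 2 (Fn1, Sparc and Thbs1), and 0 without any 1 of the other libraries.

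Thbs1 was 198, 489, 209 and 368 TPM in RE, all below the KD libraries (-1.49 ± 0.36, adjusted p = 0.0695). Postn was 1.21 to 4.10 TPM in RE and 5.25 to 12.4 in KD (-1.54 ± 0.46, adjusted p = 0.106). Fbn1 was 16.3 to 41.5 TPM in RE and 49.3 to 97.1 in KD (-1.40 ± 0.47, adjusted p = 0.129). The 3 genes had fold changes near that of Fn1 with wider errors, and for each the lowest RE libraries included RE 3. Fbln2 was 53.9, 76.3, 45.4 and 74.6 TPM in RE, with its highest RE library just under the lowest KD library (-0.57 ± 0.28, adjusted p = 0.196). Thbs2 was 79.9, 194, 106 and 138 TPM in RE, with RE 2 inside the KD range (-0.90 ± 0.33, adjusted p = 0.140). Tnc ranged from 24.9 to 46.8 TPM in RE (-0.65 ± 0.28, adjusted p = 0.170).

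Mfap5 stayed high in RE. Its levels were 115, 109, 192 and 107 TPM, and KD and RE overlapped (log2 fold change -0.28, 95% interval -1.15 to 0.58, adjusted p = 0.614). Without CON 4, RE 1 and RE 3, no member passed the test in RE against KD, against 0.425% of all tested genes (0.136% higher, 0.289% lower). With the length correction Fn1 and Thbs1 were called, against 2.02%, and with median-of-ratios scaling Fn1 alone, against 0.662%. The fibroblast markers Col1a1 and Col1a2 fell in RE against KD, called in 9 and 8 of 23 alternatives, and none rose. Their part in the members' values was not tested.

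RE against CON sets the cells that had received both viruses beside the vector control. Fn1, Thbs2 and Fbln2 were lower and Mfap5 was higher. Fn1 fell from 2022 ± 698 to 619 ± 170 TPM, Thbs2 from 343 ± 116 to 130 ± 49.4 and Fbln2 from 146 ± 51.1 to 62.6 ± 15.3, and Mfap5 rose from 48.2 ± 37.3 to 131 ± 41.1. The 3 falls stood against 3.63% of all tested genes lower, and the 1 rise against 2.7% higher (6.33% in all). The median of the 9 genes was -0.93, against -0.27 for all tested genes. It was -0.90 without CON 4, RE 1 and RE 3 (all tested genes -0.22). With the length correction it was 0.05 (all genes with a length -0.00015), so the sign of the median depended on that correction. RE and CON are each compared with KD above, so the 3 comparisons share libraries.

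For Fn1 every RE library lay below every CON library (-1.66 ± 0.33, adjusted p = 0.00908, exact permutation p = 0.0286), and the fall was called in all 23 alternatives. For Mfap5 every RE library lay above every CON library (1.63 ± 0.40, adjusted p = 0.0297, exact permutation p = 0.0286), and the rise was called in 16 of 23 alternatives. These were the only members whose RE and CON libraries did not overlap, 1 lower against 4.76% of all tested genes and 1 higher against 4.46%. For Thbs2 the highest RE library, 194 TPM in RE 2, lay above CON 4 (-1.39 ± 0.33, adjusted p = 0.0245, exact permutation p = 0.0571, called in 17 of 23 alternatives). For Fbln2, 76.3 TPM in RE 2 and 74.6 in RE 4 lay just above the 72.1 of CON 4 (-1.15 ± 0.28, adjusted p = 0.0306, exact permutation p = 0.0857, called in 17 of 23). In both genes the overlap came from CON 4 alone, and the other 3 CON libraries stood above RE. Leaving out CON 1, CON 2, CON 3, RE 1 or RE 3 left only Fn1 called, leaving out RE 2 left Fn1, Thbs2 and Fbln2, and leaving out CON 4 gave 7 members, these 4 and Thbs1, Postn and Fbn1.

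Sparc in RE lay close to CON, with a difference of -0.05 and a 95% interval of -0.31 to 0.22 (adjusted p = 0.777). With median-of-ratios scaling that difference was 0.26, so its sign depends on the scaling. Thbs1 (-0.52 ± 0.36, adjusted p = 0.310), Postn (-1.06 ± 0.46, 0.166), Fbn1 (-0.93 ± 0.47, 0.204) and Tnc (-0.27 ± 0.28, 0.493) did not pass the test. Without CON 4, RE 1 and RE 3, Postn (-1.42, adjusted p = 0.0342) and Fbn1 (-0.90, adjusted p = 0.0338) passed it too, which gave 5 members lower and 1 higher, against 24% and 8.13% of all tested genes (32.1% in all). The length correction and median-of-ratios scaling left the same 4 members called as the deposited values, against 12.8% and 9.3% of genes. The length correction made the falls smaller, at -0.83 for Fn1, -0.77 for Thbs2 and -0.67 for Fbln2, and Mfap5 was 1.76. Tnc was 0.47 with the length correction, which did not pass the test (adjusted p = 0.0988). The fibroblast markers Col1a1, Col1a2, Col3a1 and Dcn fell in RE against CON, 4 of 8 tested (Col1a2 in 8 and Col3a1 in 13 of 23 alternatives), and their part in the members' values was not tested.

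Within the groups, the 7 members with transcripts of at least 4786 bases deviated downward in CON 4, KD 3 and RE 3, with Sparc and Mfap5 upward. In CON 1, CON 2, KD 1 and KD 2 the signs were reversed, with the 7 above and Sparc and Mfap5 below their means. Deviations from a group mean balance within the group, so these 2 sides are not independent. On the log2 scale those 7 were 0.60 to 1.55 below their CON mean in CON 4, whereas Sparc was 0.20 and Mfap5 1.34 above it. In KD 3 the 7 were 0.15 to 0.56 below their KD mean, with Sparc 0.22 and Mfap5 0.69 above. In RE 3 the 7 were 0.16 to 0.66 below their RE mean, with Sparc 0.07 and Mfap5 0.60 above. RE 1 and RE 2 did not show this split: Postn was 0.31 above its RE mean in RE 1 and 0.51 below it in RE 2, where the other 6 long members were 0.18 to 0.61 below and 0.31 to 0.74 above, and Sparc was -0.14 and 0.04. In each group, Mfap5 was highest in the library with the lowest long-transcript deviation (CON 4, KD 3 and RE 3).

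**Figure D3:**
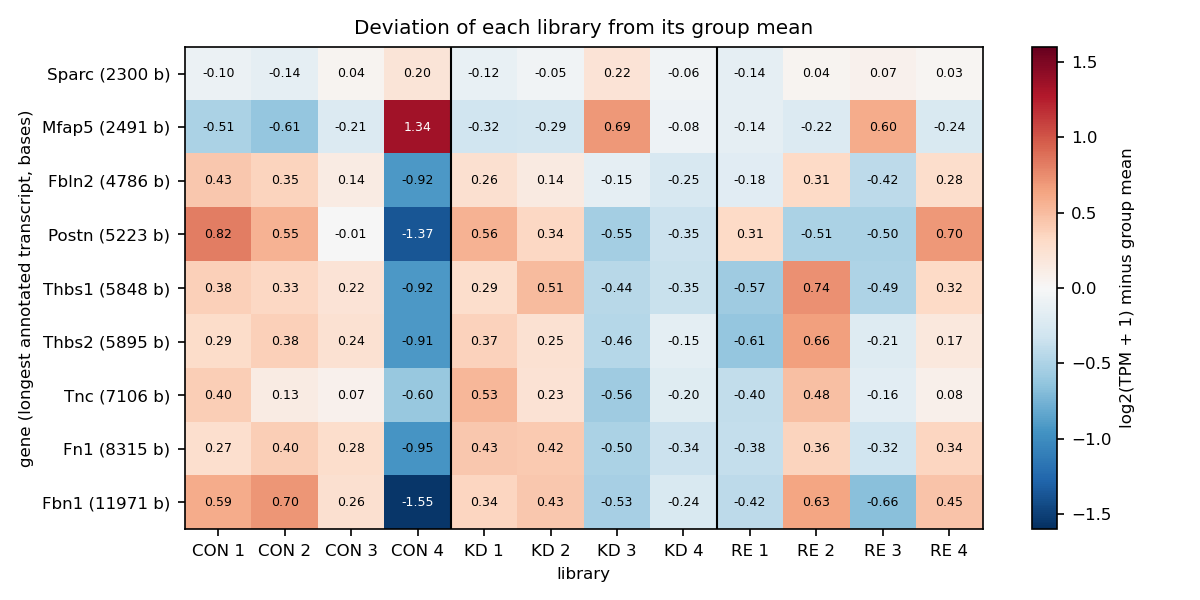
Deviation of each gene's log2(TPM + 1) from its own group mean in each of the 12 libraries, with genes ordered by transcript length. CON 4 is negative for the 7 longest transcripts and positive for Sparc (0.20) and Mfap5 (1.34), and KD 3 shows the same signs. Red is above and blue below the group mean.

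A ratio of 2 members within a library is not touched by the scaling of that library. Ratios were formed after the members' values had been seen, for the 10 pairs whose longer transcript exceeds the shorter by at most 25%. Of the 30 comparisons of these ratios between groups, 17 had groups that did not overlap, each with an exact two-sided permutation p of 0.0286, which became 0.0504 after Benjamini-Hochberg adjustment over the 30. None passed 0.05 after adjustment. The 10 pairs share genes and libraries, and pairs of other genes were not compared, so the count of 17 has no background beside it.

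The ratio of Thbs1 to Thbs2 was 1.38, 1.26, 1.29 and 1.30 in CON, 3.39, 4.31, 3.65 and 3.13 in KD and 2.47, 2.52, 1.97 and 2.66 in RE. CON 4 lay among the other CON libraries here, although both genes were low in it. The groups did not overlap in any of the 3 comparisons, with log2 differences of 1.46 (KD against CON), -0.59 (RE against KD) and 0.87 (RE against CON). The ratio of Thbs1 to Fbln2 was 3.09 ± 0.130 in CON, 9.21 ± 1.81 in KD and 4.90 ± 1.14 in RE, again without overlap in all 3. Thbs2 against Fbln2 was 2.37 ± 0.162, 2.54 ± 0.342 and 2.05 ± 0.480, with overlap in all 3. The ratio of the 2 thrombospondins thus did not overlap between the 3 groups, although its adjusted p of 0.0504 (permutation test) missed the threshold in each comparison. The ratio of Thbs2 to Fbln2 did not separate the groups.

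Fibronectin against tenascin C gave 48.0 ± 9.07 in CON, 34.0 ± 3.57 in KD and 18.2 ± 2.46 in RE. All RE libraries lay below all KD libraries (log2 difference -0.90) and below all CON libraries (-1.38), and KD and CON overlapped. Among the short transcripts, Sparc against Mfap5 was 79.6, 83.2, 70.8 and 26.5 in CON, 16.1 to 26.4 in KD and 12.6 to 22.0 in RE. CON 4 lay just above the highest KD library and far below the other CON libraries.

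**Figure D4:**
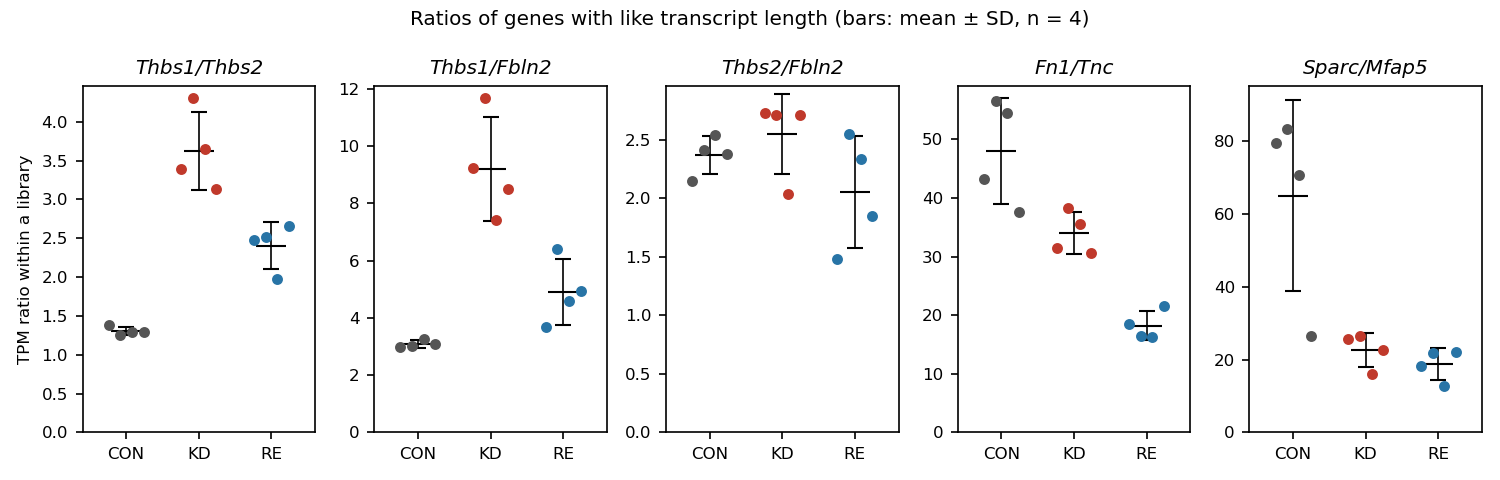
Ratio of TPM within each library (linear axis from 0) for 5 pairs of the 9 genes, with 1 point per library in CON, KD and RE and bars for the mean ± SD (n = 4). The Thbs1 to Thbs2 ratio is 1.26 to 1.38 in CON, 1.97 to 2.66 in RE and 3.13 to 4.31 in KD, without overlap.

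Over the 12 libraries, the members' log2 levels ran most alike for Thbs2 and Fbln2 (Pearson r = 0.95), Fn1 and Thbs2 (0.94), Thbs1 and Fbn1 (0.93) and Thbs1 and Tnc (0.92). The most opposite pair was Mfap5 and Fbln2, at -0.83. These are descriptions over libraries that share groups and the long-transcript differences, and carry no test. Among 9625 genes with a mean of at least 5 TPM, those closest to Thbs1 were Antxr1 (0.987), Itga5 (0.986), which encodes the fibronectin receptor subunit alpha 5, and Col4a2 (0.986). Closest to Fn1 were Dhx57 (0.983), Vegfa (0.982) and Tacc1 (0.981), and closest to Fbln2 were Eif4g3 (0.988), Ano6 (0.987) and Wisp1 (0.986). Sparc ran closest to Mmp3 (0.971), a matrix metalloproteinase, followed by Tcta (0.949) and Glt8d1 (0.921). Mfap5 ran closest to Cbr2 (0.988), Bsg (0.984), which encodes basigin, and Carns1 (0.977).

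The lists of related genes below are to be read beside the shares of all tested genes given above for each comparison, and beside the medians of all tested genes (-0.01 in KD against CON, -0.29 in RE against KD and -0.27 in RE against CON). Of 16 genes listed under fibronectin receptors and assembly, 13 were tested. Of these, 3 rose in KD against CON and none fell (median 0.27), none changed in RE against KD (-0.52), and 1 fell in RE against CON (-0.50). Without CON 4, RE 1 and RE 3 the counts were 3 higher and 1 lower in KD against CON and 3 higher and 4 lower in RE against CON. The risers were Fstl1 (377 ± 76.4 to 610.0 ± 40.2 TPM, log2 fold change 0.72), Itgb5 for integrin beta 5 (132 ± 2.61 to 185 ± 7.40, 0.48) and the heparan sulfate proteoglycan gene Sdc1 (260 ± 17.4 to 360 ± 43.8, 0.46). Fstl1 encodes a secreted protein, follistatin-like 1, which is not a fibronectin receptor, so its place on this list is loose. Sdc2 fell from 309 ± 43.4 TPM in CON to 191 ± 30.0 in RE (-0.69). Of 23 alternatives, 16 called Fstl1, 12 Itgb5 (adjusted p = 0.0370), 8 Sdc1 (adjusted p = 0.0484) and 17 Sdc2, which was -0.38 with the length correction.

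Of 10 thrombospondins, tenascins and receptors, 6 were tested. Calr, the gene for calreticulin, which binds thrombospondin 1, rose from 1456 ± 559 in CON to 3155 ± 455 TPM in KD (1.17) and 2840.2 ± 575 in RE (1.01). Tnr, for tenascin R, fell from 4.23 ± 2.47 to 0.610 ± 0.489 in KD (-1.54) and 0.0802 ± 0.0979 in RE (-2.07). It entered the test only through CON, the group in which it was high. Thbs3 was 33.7 ± 7.09 in CON, 30.9 ± 4.38 in KD and 14.2 ± 2.57 in RE, and fell in RE against CON (-1.18, called in 23 of 23 alternatives). Its fall in RE against KD (-1.07, adjusted p = 0.0349) was called in 10 of 23 and missed the threshold without CON 4, RE 1 and RE 3 (-0.86, adjusted p = 0.0516). That made 1 rise and 1 fall in KD against CON (median -0.11), 1 fall in RE against KD (-0.58), and 1 rise and 2 falls in RE against CON (-0.91). Without the 3 libraries there were 0 changes in RE against KD and 3 falls in RE against CON. The KD call of Tnr held in 14 of 22 alternatives and the RE call of Calr in 15 of 23.

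Of 14 other matricellular genes, 8 were tested. Of these, 4 rose and none fell in KD against CON (median 0.96), 1 fell in RE against KD (-0.13), and 5 rose and 1 fell in RE against CON (1.05). Without the 3 libraries 6 rose and 1 fell in KD against CON, and 5 rose and 2 fell in RE against CON. Spp1, for osteopontin, was the most abundant, with 4613 ± 280 TPM in CON, 8265 ± 630.1 in KD (0.84) and 8059 ± 1422 in RE (0.79). Smoc1, Smoc2 and Wisp2 rose in both, from means of 0.098, 0.325 and 3.93 TPM in CON. Smoc1 and Smoc2 had a group mean of 1 TPM or more only in KD and RE. They entered the test through the groups in which they were high, so their rises carry little weight in the counts above. Ctgf rose in RE against CON from 23.6 ± 5.69 to 85.0 ± 39.2 TPM (1.72), and Wisp1 fell from 128 ± 66.7 to 33.1 ± 13.4 (-1.79, adjusted p = 0.0428). The fall of Wisp1 was called in 10 of 23 alternatives, and in 2 of the 12 that leave out 1 library. The highest adjusted p over the 23 was 0.147. Sparcl1, the closest relative of Sparc, was 2.61 ± 1.15 in CON, 3.89 ± 0.495 in KD and 1.03 ± 0.159 in RE, and fell in RE against KD (-1.27, adjusted p = 0.0376), a call that held in 11 of 22 alternatives.

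Of 25 elastic fibre and microfibril genes, 18 were tested. Of these, 5 rose and 2 fell in KD against CON (median 0.24), none changed in RE against KD (-0.50), and 3 rose and 3 fell in RE against CON (-0.22). Without the 3 libraries 7 rose and 4 fell in KD against CON, and 4 rose and 6 fell in RE against CON. Fbln7, for a fibulin, rose from 9.25 ± 2.17 TPM in CON to 48.1 ± 1.91 in KD (2.28) and 28.4 ± 6.60 in RE (1.52). The genes for enzymes that cross-link elastin and collagen rose in KD, Loxl1 from 44.6 ± 5.63 to 118 ± 8.04 (1.39) and Lox from 580.1 ± 168 to 1125 ± 203 (0.99), and Loxl1 was also higher in RE (115 ± 35.8, 1.30). Ltbp4, for a latent TGF-beta binding protein, fell from 12.2 ± 2.62 to 5.27 ± 0.373 in KD (-1.06) and 4.14 ± 0.708 in RE (-1.35), and Fbln5 fell in RE against CON from 9.26 ± 2.30 to 2.70 ± 0.666 (-1.46). Eln, the elastin gene, had a mean under 1 TPM and was not tested.

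Of 16 TGF-beta ligands, receptors, SMADs and targets, none fell in any comparison, but without CON 4, RE 1 and RE 3, 2 fell in KD against CON and 4 in RE against CON. Acvrl1, for a receptor of the TGF-beta family, was 0.485 ± 0.334 TPM in CON, 4.39 ± 0.967 in KD and 5.58 ± 1.64 in RE, and rose in both against CON (1.87 and 2.14). It entered the test only through KD and RE, the groups in which it was high. Of 11 YAP and TEAD genes, 1 fell in both, Tead2 (20.6 ± 2.62 in CON, 5.73 ± 0.835 in KD and 7.51 ± 0.588 in RE, -1.68 and -1.34). Without the 3 libraries, 1 YAP and TEAD gene rose and 3 fell in KD against CON, and 5 fell in RE against CON. No gene of either list changed in RE against KD, with or without those libraries.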

How the data were processed

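Illumina libraries were built from TRIzol-extracted total RNA, per the labels' protocols. The submitters' processing notes list Trim Galore 0.6.6, TopHat2 2.1.1, Cufflinks 2.2.1 and the mm10 build; neither the steps that gave TPM nor the use of strand is given in the sources used here. The authors deposited 1 table of TPM values, whose columns each sum to 1000000, so depth is unknown and no counting interval is given. Of 23184 symbols, 6088 were listed at 0 in all libraries. The control columns are named WT and were taken as CON because the labels give CON that genotype. CON 1 to CON 4 stand for the numbers in those column names, which are not matched to single labelled samples; the replicate block and the check of same-numbered libraries use these column numbers for CON.

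Genes averaging 1 TPM or more over all libraries entered the test on log2(TPM + 1), which understates changes of low genes, in 1 model of the 12 libraries with limma 3.58.1 (R 4.3.3; mean-variance trend, two-sided). Benjamini-Hochberg adjustment ran over all 11774 tested genes, and an adjusted p below 0.05 counts as changed. Every adjusted p of a gene comes from limma. The code was tested on simulated data. Single members also had a two-sided exact test over all permutations of the 4 and 4 library values.

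Transcript lengths and positions came from GENCODE on GRCm38, with a length for 99.5% of tested genes; 3 libraries stood apart in long transcripts. Alternatives changed the pseudocount (0.1), the filter (none, or 5 TPM), the scaling (median of ratios, or quantiles), the samples in the model (2 compared groups; each library left out; CON 4, RE 1 and RE 3 left out) or the moderation (robust), added replicate number as a block, or subtracted a loess trend on transcript length (span 0.5), alone and with the block. The members, lists and alternatives were chosen with earlier results of these data known. The text names all members, up to 4 changed genes of each list per comparison, and the 3 genes most like a member. Some of the genes so named are left out of the text.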

Additional observations from a re-analysis of the deposited data

Results flagged for a closer look

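Among 153 groups of 4 values, 17 held a sample whose gap to the nearest other value, divided by the group's range, was above Dixon's 95% critical value; chance gives this in about 1 group in 20. Of the members, Fn1 in CON 4 was 984 TPM (others 2299 to 2502), Thbs1 in CON 4 was 222 TPM (493 to 549), Thbs2 in CON 4 was 171 TPM (382 to 422), and Mfap5 in RE 3 was 192 TPM (107 to 115). Of their ratios, Sparc to Mfap5 in CON 4 was 26.5 (70.8 to 83.2) and Thbs2 to Fbln2 in KD 3 was 2.03 (2.71 to 2.73).

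The other values far from their group in CON 4 were Sdc1 at 234 TPM (265 to 272), Tnr at 0.569 TPM (4.92 to 5.83), Calr at 2290 TPM (1106 to 1249), Sparcl1 at 0.892 TPM (3.04 to 3.38) and Chrna1 at 8.27 TPM (13.0 to 14.1). In KD they were Sdc2 in KD 2 at 322 TPM (275 to 282), Loxl1 in KD 3 at 106 TPM (120 to 123), Col1a1 in KD 4 at 41.8 TPM (61.8 to 64.4) and Myod1 in KD 4 at 0.125 TPM (the others listed at 0). In RE they were Smoc1 in RE 2 at 2.41 TPM (1.61 to 1.72) and Myod1 in RE 3 at 0.133 TPM (the others listed at 0).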

How the results depend on the processing

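The fall of Fn1 in RE against CON and the rise of Mfap5 in KD against CON were called in all 23 alternatives run; the causes of the changes below were not tested. All values are log2 fold changes unless a count is named.

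With a filter of 5 TPM and with no filter, Fn1 (-1.56) and Sparc (-0.58) in RE against KD missed the threshold, which left 0 members called there, and the 5 TPM filter gave 452 genes in RE against CON. With median-of-ratios scaling, Sparc missed it in KD against CON (0.51) and RE against KD (-0.25), Fbln2 (-0.60) and Thbs1 (0.95) passed it in KD against CON, Mfap5 was 0.042 in RE against KD, and Sparc was 0.26 and Tnc 0.035 in RE against CON; RE against KD had 78 genes and 1 member. Quantile normalization gave -1.57 for Fn1 in RE against KD (not called), 0.034 for Tnc in RE against CON, 1904 genes in KD against CON, 1178 in RE against CON and 1 member in RE against KD. Robust moderation left Fn1 in RE against KD (-1.56) uncalled, with 1 member there. With the 2 compared groups alone, Fbln2 (-1.15), Mfap5 (1.63) and Thbs2 (-1.39) in RE against CON and Sparc (-0.58) in RE against KD missed the threshold; 409 genes and 1 member changed in RE against CON, and 49 genes and 1 member in RE against KD.

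The length correction gave Fbln2 -0.62, Fbn1 0.55, Thbs1 0.94 and Thbs2 -0.51 in KD against CON, now called, Thbs1 -0.86 in RE against KD, now called, and Sparc -0.45 in RE against KD, not called. Fbn1 (0.10), Sparc (0.053), Thbs1 (0.089) and Tnc (0.47) in RE against CON and Tnc (0.087) in RE against KD changed sign. It gave 2510, 236 and 1497 genes in KD against CON, RE against KD and RE against CON, and 6 members in KD against CON. Without CON 4, RE 1 and RE 3, Fbln2 (-0.89), Thbs1 (0.66) and Thbs2 (-0.79) in KD against CON and Fbn1 (-0.90) and Postn (-1.42) in RE against CON passed the threshold, Fn1 (-1.21) and Sparc (-0.54) in RE against KD did not, and Fbn1 in KD against CON (-0.040), Sparc in RE against CON (0.053) and the ratio of Postn to Thbs2 in RE against CON (-0.54) changed sign; 4636, 50 and 3781 genes changed, with 5 members in KD against CON and 0 in RE against KD.

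Same-numbered libraries did not deviate together: the correlation of their deviations ran from -0.71 to 0.65 over 12 pairs and was above 0.1 in 6, so the samples share only a number, for CON that of the table's column. With the replicate block, Fn1 (-1.56) and Sparc (-0.58) in RE against KD were not called, and 19 genes and 0 members changed there. The block with the length correction gave the length-corrected values above, with Fbln2 -0.62, Fbn1 0.55 and Thbs1 0.94 called in KD against CON, Fn1 -0.76 and Sparc -0.45 in RE against KD not called, 24 genes and 0 members in RE against KD and 5 members in KD against CON.

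Leaving out 1 library gave 744 to 2412, 13 to 2791 and 417 to 6219 genes in KD against CON, RE against KD and RE against CON, and 1 to 3, 0 to 7 and 1 to 7 members. In KD against CON, Fbln2 ran from -0.89 to -0.44, Fbn1 from -0.040 to 0.71, Fn1 from -0.41 to 0.074 and Sparc from 0.45 to 0.59. In RE against KD, Fbln2 ran from -0.67 to -0.43, Fbn1 from -1.61 to -1.18, Fn1 from -1.73 to -1.42, Postn from -1.77 to -1.35, Sparc from -0.61 to -0.50, Thbs1 from -1.74 to -1.30 and Thbs2 from -1.12 to -0.70. In RE against CON, Fbln2 ran from -1.46 to -1.01, Fbn1 from -1.44 to -0.69, Mfap5 from 1.42 to 2.07, Postn from -1.51 to -0.78, Sparc from -0.10 to 0.018, Thbs1 from -0.83 to -0.33 and Thbs2 from -1.70 to -1.19. Fn1 in KD against CON was 0.04 without CON 2, 0.074 without KD 3 and 0.02 without KD 4, and Wdr62 in RE against KD was -0.01 without KD 4, -0.0038 without RE 1 and -0.095 without RE 4, and at most 0.157, without RE 2. Depth is unknown, which limits what can be said of low genes such as Postn and Tnr.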
